A study of Homo sapiens with 6 samples.

Results

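The collagen hydroxylases and lysyl oxidases are enzymes that act on collagen chains during and after their synthesis. Members were chosen by gene symbol, as 3 catalytic alpha subunits of prolyl 4-hydroxylase (P4HA1, P4HA2 and P4HA3), 3 lysyl hydroxylases (PLOD1, PLOD2 and PLOD3) and 4 lysyl oxidases (LOX, LOXL1, LOXL2 and LOXL4), 10 genes of the 27754 in the count files. Their transcripts were measured by RNA sequencing in T47D cells, an established luminal-like human breast cancer line grown alone in serum-containing medium. There were 3 libraries from normoxia (20% O2) and 3 libraries from cells kept for 48 h in a hypoxia chamber, at 0.5% O2 by the labels of the libraries, although the study's own text gives another O2 level. No gene was altered and no drug was given in either group. Libraries were numbered 1 to 3 in each condition and held 32989104 to 89883409 counts, with the highest total in hypoxia replicate 3. The study describes its data as independent experiments, the labels do not restate it, and the p-values measure the spread between these libraries.

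Prolyl 4-hydroxylase adds hydroxyl groups to proline in the endoplasmic reticulum, which stabilises the collagen triple helix, and each alpha subunit works in a complex with the protein disulfide isomerase P4HB. The lysyl hydroxylases modify lysine in the same compartment, and both hydroxylase families use molecular oxygen, iron, 2-oxoglutarate and ascorbate. The lysyl oxidases are secreted copper enzymes that turn lysine and hydroxylysine into aldehydes, which then form the cross-links of collagen and elastin fibres. Several of these genes are known targets of the hypoxia-inducible factors in other cells.

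In hypoxia, transcripts of 7 of the 10 genes rose. LOX rose the most, 43.6-fold, followed by LOXL4 at 11-fold, P4HA1 at 8.08-fold, LOXL1 at 4.19-fold, PLOD2 at 2.5-fold, P4HA2 at 1.9-fold and PLOD1 at 1.88-fold. PLOD3 and LOXL2 did not pass the test, and P4HA3 had too few counts to be tested. The fold changes come from edgeR's quasi-likelihood test on the counts, with a Benjamini-Hochberg adjusted p under 0.05 as the threshold.

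The calls have to be read against a broad response. Of 15657 genes tested, 59.5% were called in either direction, 30.4% higher and 29.1% lower in hypoxia, and the median log2 fold change of all tested genes was 0.028. A fit with the replicate number as a block called more genes, 5733 higher and 5511 lower, against 4765 and 4551 without it. Calls added by the block below have to be read against that rise. Among the 9 tested members, 7 were called higher and 0 lower. A call with a log2 fold change of at least 1 was made for 15.2% of the tested genes and for 5 members. A filter on low counts removed P4HA3, and LOXL2 and LOXL4 passed that filter only because of their hypoxia libraries. The other 7 tested members had all 3 normoxia libraries over the filter level of 0.261 CPM (read counts relative to library size, before TMM normalisation here and after it for all levels below), and 6 of them were called higher. In RNA from whole cultures, a change in the number of cells that make a transcript cannot be told apart from a change in the RNA per cell.

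**Figure D1:**
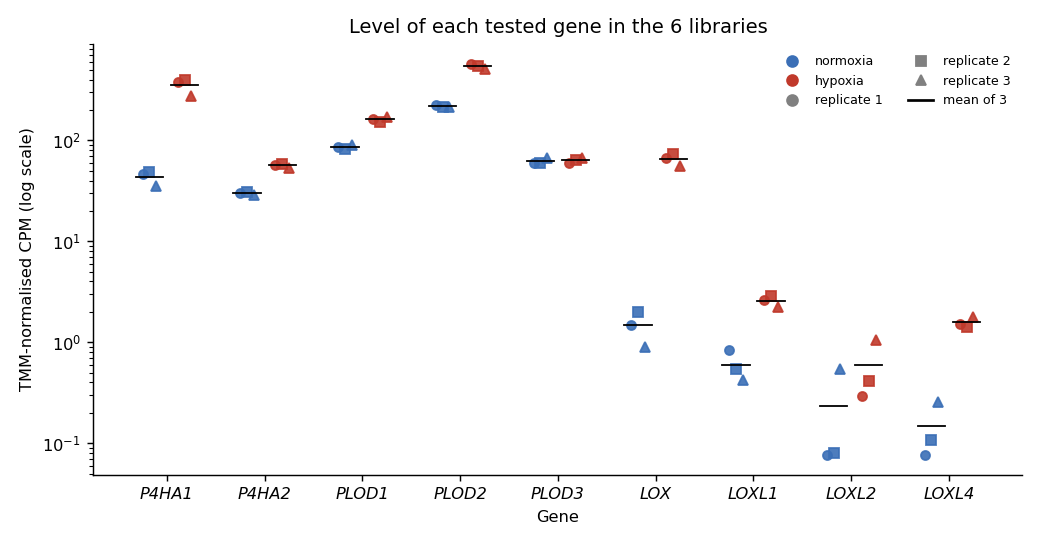
TMM-normalised CPM (log scale) of the 9 tested genes in each of the 6 libraries, with normoxia in blue, hypoxia in red, a symbol for each replicate number and a bar at the mean of 3. The groups are apart for all genes plotted but PLOD3 and LOXL2, and LOX moves from a mean of 1.47 to 65.2 CPM. The share of all genes with groups apart was not determined.

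The labels were compared with marker genes, in lists chosen with earlier results of these data known. All 9 genes of a list of known low-oxygen response genes were called higher, with a median log2 fold change of 2.70. Of these, 1 passed the filter only through its hypoxia libraries, and the median of the other 8 was 2.58. EGLN3 and SLC2A1 of this list are also counted in lists described below. VEGFA, the angiogenic growth factor, had a log2 fold change of 4.36 ± 0.13 (SE). Luminal markers were abundant in all 6 libraries, with summed levels of 13959 to 18121 CPM in normoxia and 10193 to 13471 CPM in hypoxia. Of the 9 luminal markers, 0 were called higher and 4 lower, among them ESR1, the estrogen receptor, at -1.86 ± 0.09. With the replicate block, 1 was called higher (CDH1) and 6 lower (KRT8 and KRT18 in addition). Of 10 fibroblast markers, 4 passed the filter, 2 of these only through their hypoxia libraries, those 2 were called higher, and PDGFRA was at 0 counts in every library. Summed levels of the fibroblast list were 94.4 to 107.2 CPM in normoxia and 91.6 to 122.1 CPM in hypoxia, most of it from the collagen chain gene COL1A1. Their part in the changes of the enzymes was not tested.

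The 5 letters ACGTG and GCGTG are the cores of the elements that hypoxia-inducible factors are known to bind. They were searched on both strands, where matches may overlap, in the 250 bases before the RefSeq start of each gene. The search covered 8 members with a window in the RefSeq promoter table (build GRCh38.p14). No window of P4HA3 or LOXL2 was searched. Each window also occurred once, letter for letter, in GRCh37, the build of the count files. ACGTG was present in the windows of 3 members and in 18.5% of all 35116 windows, and GCGTG in those of 2 members and in 32.2% of all windows. The LOX window held ACGTG 4 times, a number reached by 0.669% of all windows. PLOD2 had both motifs, P4HA1 had only ACGTG and PLOD1 had only GCGTG. Neither was found in the windows of P4HA2, PLOD3, LOXL1 and LOXL4, a statement about these letters alone. In all, 43.2% of the 35116 windows held either motif. Members were searched only in the window of their most upstream start, whereas these shares are over every window in the table. The members and the shares are therefore not matched in how windows were chosen.

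The sequences around the 10 matches are shown so that the number, spacing and strand of the matches can be compared among LOX, P4HA1, PLOD2 and PLOD1. Each is given 5′ to 3′ on the strand of its gene with GRCh37 coordinates, and the capitals mark the motif, which reads CACGT where it lies on the other strand. Distances are counted from the RefSeq start to the first letter in capitals.
LOX, 185 bases upstream, chr5:121414123-121414151, minus strand: gctccctgtgcaACGTGtctggggggagg
LOX, 116 bases upstream, chr5:121414054-121414082, minus strand: ctgtccgccttgCACGTttccaatcgcat
LOX, 98 bases upstream, chr5:121414036-121414064, minus strand: tccaatcgcattACGTGaacaaatagctg
LOX, 42 bases upstream, chr5:121413980-121414008, minus strand: gtaactttgcaaACGTGccagaaagttta
P4HA1, 86 bases upstream, chr10:74856694-74856722, minus strand: tgtgatcgagctCACGTagcgagggctgc
PLOD2, 213 bases upstream, chr3:145879168-145879196, minus strand: gccagaagcgctGCGTGagcctccacacg
PLOD2, 200 bases upstream, chr3:145879155-145879183, minus strand: cgtgagcctccaCACGTagccgcaggcag
PLOD2, 146 bases upstream, chr3:145879101-145879129, minus strand: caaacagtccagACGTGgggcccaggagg
PLOD1, 68 bases upstream, chr1:11994694-11994722, plus strand: gcgcgggggaggGCGTGgaggggcggggt
PLOD1, 25 bases upstream, chr1:11994737-11994765, plus strand: ggcgggcccagtGCGTGgcagcgggacct
A match is a string of letters and not a measured binding site. The gene models used for counting begin 4 to 772 bases further upstream than the RefSeq starts of these 8 windows, so that 9 of the 10 matches lie inside a counted exon.

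P4HA1 encodes the alpha subunit of the most widely made form of prolyl 4-hydroxylase. The gene lies at chr10:74766980-74856732 on the minus strand, and its reads were counted over 3010 exon bases. In normoxia, P4HA1 had 46.1, 48.6 and 35.6 CPM in replicates 1, 2 and 3, and in hypoxia it had 379.6, 397.6 and 277.0 CPM. Every hypoxia library was far above every normoxia library, and replicate 3 was the lowest of both groups. The mean went from 43.4 ± 6.92 to 351.4 ± 65.0 CPM (SD, n = 3), which is a log2 fold change of 3.02 ± 0.18 (SE) with a 95% interval of 2.61 to 3.42 (edgeR adjusted p = 3.94e-05). Within replicate numbers the log2 differences were 3.04, 3.03 and 2.96. P4HA1 ranked 424 of the 15657 tested genes by log2 fold change.

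P4HA2, which encodes an alternative alpha subunit, changed less. The gene lies at chr5:131528304-131563556 on the minus strand. It had 30.3, 30.6 and 28.7 CPM in normoxia and 57.7, 59.0 and 53.4 CPM in hypoxia. The groups did not overlap and each was narrow. The mean went from 29.9 ± 1.02 to 56.7 ± 2.91 CPM (SD, n = 3), and the log2 fold change was 0.92 ± 0.08, with a 95% interval of 0.74 to 1.11 (edgeR adjusted p = 1.10e-04). An antisense gene, P4HA2-AS1, overlaps 7.21% of the counted bases and itself had 0 to 2 counts in a library.

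P4HA3, the alpha subunit of a less common form, was close to undetected. This gene, at chr11:73977694-74022721 on the minus strand, had 0 counts in all 3 normoxia libraries and 4, 2 and 12 counts in hypoxia replicates 1, 2 and 3. Over the group, the 111932241 normoxia counts allow a level of up to 0.0279 CPM (3 counts), and the 18 hypoxia counts amount to 0.107 CPM. Against that limit the hypoxia level was at least 3.83-fold higher, or at least 2.27-fold higher at the lower end of the exact 95% Poisson interval of the 18 counts, with counting error only taken into account. When all 22214 genes with any count were tested, without the filter on low counts, P4HA3 passed (edgeR adjusted p = 0.0145). It entered that test through its hypoxia counts alone, so this p-value is not separate support. In that fit 5297 genes were called higher.

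The unequal changes shifted the makeup of the alpha subunits. Per kilobase of counted exon, P4HA1 made up 57.7%, 58.8% and 52.7% of the summed alpha subunit CPM in normoxia and 85.5%, 85.8% and 82.3% in hypoxia. P4HA2 went from 43.6% ± 3.27 to 15.4% ± 1.93 (SD, n = 3) of the sum, although its own level rose. The sum itself went from 25.5 ± 2.67 to 137.7 ± 22.7 CPM per kilobase, 5.41 times the normoxia mean. The mean log2 ratio of P4HA1 to P4HA2 counts changed by 2.09 ± 0.16 (SE), from 0.53 to 2.62, and the groups did not overlap (exact permutation test, two-sided, p = 0.1). A p of 0.1 is the smallest that 3 libraries against 3 can give, and adjustment over the 12 pairs of genes compared here makes it 0.12, so no ratio could pass 0.05.

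P4HB, the common beta subunit, was far more abundant per length than any alpha subunit, with 473.4 ± 34.8 CPM per kilobase in normoxia and 550.1 ± 21.0 in hypoxia (SD, n = 3). Its log2 fold change was 0.22 ± 0.09 (edgeR adjusted p = 0.0581), and the block on replicate number gave an adjusted p of 0.00673. P4HB also passed without hypoxia replicate 3 (adjusted p = 0.0425), with upper-quartile factors (0.0126) and in DESeq2 (0.0361). It stayed uncalled in 8 of 13 alternative fits. The log2 ratio of P4HA1 to P4HB changed by 2.79 ± 0.16 and that of P4HA2 to P4HB by 0.71 ± 0.04, again without overlap of the groups (exact permutation test, p = 0.1 for each, adjusted p = 0.12).

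**Figure D2:**
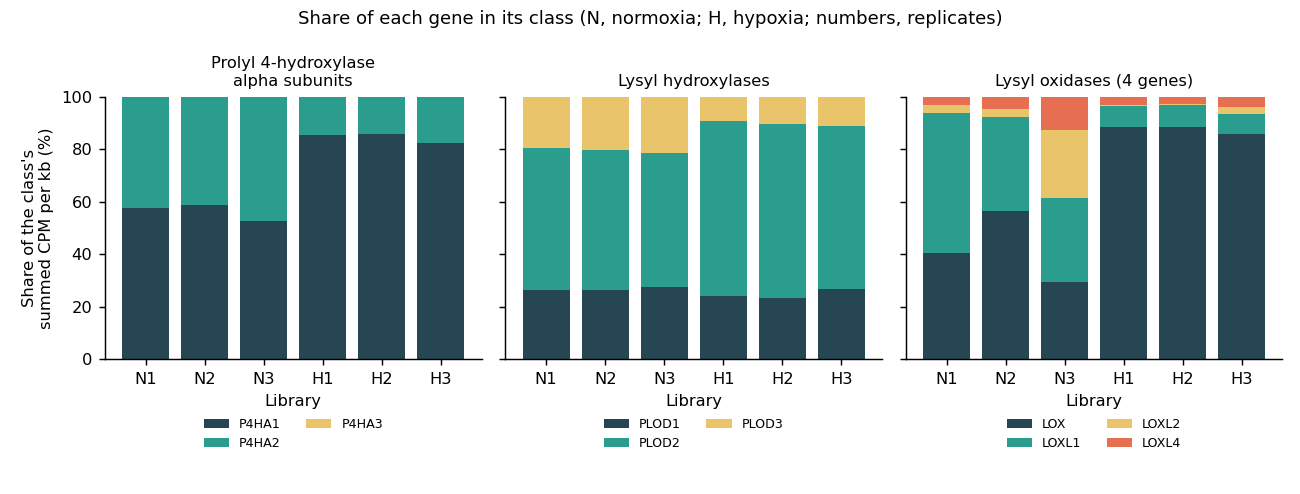
Share (%) of each gene in the summed CPM per kilobase of its class, in normoxia (N1 to N3) and hypoxia (H1 to H3) replicates. P4HA1 goes from 56.4% to 84.5% of the alpha subunits on average, PLOD2 from 52.8% to 64.9% of the lysyl hydroxylases, and LOX from 42.2% to 87.5% of the 4 lysyl oxidases, whose normoxia shares rest on few counts.

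PLOD2 is known as the lysyl hydroxylase of the collagen telopeptides, the ends where cross-links form. The gene lies at chr3:145787228-145879282 on the minus strand. It had 224.8, 213.1 and 215.0 CPM in normoxia and 577.1, 547.6 and 507.9 CPM in hypoxia. All 3 hypoxia libraries were above all 3 normoxia libraries by a wide margin. The mean went from 217.6 ± 6.25 to 544.2 ± 34.7 CPM (SD, n = 3), and the log2 fold change was 1.32 ± 0.08, with a 95% interval of 1.14 to 1.5 (edgeR adjusted p = 3.94e-05).

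PLOD1, which hydroxylates lysine in the triple helix, lies at chr1:11994724-12035599 on the plus strand. Its level was 85.7, 81.9 and 90.7 CPM in normoxia and 163.3, 152.1 and 169.5 CPM in hypoxia. The groups were clearly apart, with replicate 3 the highest in both. The mean went from 86.1 ± 4.43 to 161.6 ± 8.85 CPM (SD, n = 3), which is a log2 fold change of 0.91 ± 0.08 with a 95% interval of 0.73 to 1.09 (edgeR adjusted p = 1.09e-04).

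PLOD3, which also carries glycosyltransferase activity, was the lysyl hydroxylase that did not pass the test. At chr7:100849258-100861011 on the minus strand, it had 59.4, 59.6 and 67.0 CPM in normoxia and 60.1, 64.4 and 67.5 CPM in hypoxia. The groups overlapped almost fully. The means were 62.0 ± 4.35 and 64.0 ± 3.72 CPM (SD, n = 3), and the log2 fold change of 0.05 ± 0.09 had a 95% interval of -0.15 to 0.25 (edgeR adjusted p = 0.664). The upper end of this interval lies below the lower ends of 0.73 for PLOD1 and 1.14 for PLOD2.

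PLOD2 was the most abundant lysyl hydroxylase per length in both conditions, and its share grew. It took 54.1%, 53.4% and 50.9% of the summed CPM per kilobase in normoxia and 66.5%, 66% and 62.2% in hypoxia. PLOD3 went from 20.5% ± 1.07 to 10.4% ± 0.923 and PLOD1 from 26.7% ± 0.668 to 24.7% ± 1.64 (SD, n = 3). The summed level of the class was 2.03 times higher, at 101.6 ± 2.95 CPM per kilobase in normoxia and 206.5 ± 6.55 in hypoxia. On the log2 scale, the ratio of PLOD2 to PLOD3 counts changed by 1.27 ± 0.12, that of PLOD1 to PLOD3 by 0.86 ± 0.06 and that of PLOD1 to PLOD2 by -0.41 ± 0.10. The groups did not overlap for any of these ratios (exact permutation test, p = 0.1 for each, adjusted p = 0.12).

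LOX, the founding lysyl oxidase, was at a trace level in normoxia and had the highest fold change of the tested members. The gene lies at chr5:121398890-121414196 on the minus strand and was counted over 5540 exon bases. Normoxia replicates 1, 2 and 3 gave 59, 75 and 28 counts of LOX, and the hypoxia replicates gave 2700, 2653 and 5154. As normalised levels these were 1.49, 2.02 and 0.905 CPM in normoxia and 66.7, 72.5 and 56.4 CPM in hypoxia. Replicate 3 was the lowest of each group, and the lowest hypoxia library was still far above the highest normoxia library. The mean went from 1.47 ± 0.556 to 65.2 ± 8.17 CPM (SD, n = 3). Its log2 fold change of 5.45 ± 0.24, with a 95% interval of 4.90 to 6.0, ranked 54 of 15657 (edgeR adjusted p = 1.70e-05).

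LOXL1, known for its part in elastic fibre assembly, stayed at a low level. At chr15:74218799-74244482 on the plus strand, it had 33, 20 and 13 counts in normoxia and 105, 104 and 203 counts in hypoxia, or 0.836, 0.537 and 0.420 CPM against 2.59, 2.84 and 2.22 CPM. The groups did not overlap. The mean went from 0.598 ± 0.215 to 2.55 ± 0.313 CPM (SD, n = 3), and the log2 fold change was 2.07 ± 0.28 (edgeR adjusted p = 6.53e-04). An antisense gene, LOXL1-AS1, overlaps 9.85% of the counted bases and had 29 to 337 counts in a library. The strand setting of the counting is not given in the sources used here, so reads of the pair cannot be told apart over those bases.

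LOXL4, a family member with scavenger receptor domains, was almost absent from the normoxia libraries. The gene lies at chr10:100007443-100028007 on the minus strand. It had 3, 4 and 8 counts in normoxia and 61, 52 and 163 counts in hypoxia, which are 0.0760, 0.107 and 0.258 CPM against 1.51, 1.42 and 1.78 CPM. Every hypoxia library was above every normoxia library, with replicate 3 the highest in both conditions. From a mean of 0.147 ± 0.0975 to 1.57 ± 0.189 CPM (SD, n = 3), the log2 fold change was 3.46 ± 0.39 (edgeR adjusted p = 2.95e-04). The 95% interval of 2.55 to 4.37 is wide because the normoxia counts were so few.

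LOXL2, the other listed member with scavenger receptor domains, was also rare, and its libraries disagreed. The gene lies at chr8:23154410-23261722 on the minus strand. It had 3, 3 and 17 counts in normoxia and 12, 15 and 97 counts in hypoxia, or 0.0760, 0.0806 and 0.549 CPM against 0.296, 0.410 and 1.06 CPM. Normoxia replicate 3 was above hypoxia replicates 1 and 2, so the groups overlapped, whereas each hypoxia library was above the normoxia library of the same number. The mean was 0.235 ± 0.272 CPM in normoxia and 0.589 ± 0.413 CPM in hypoxia (SD, n = 3). Its log2 fold change was 1.5 ± 0.78, with a 95% interval of -0.30 to 3.30 (edgeR adjusted p = 0.130).

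The outcome for LOXL2 rested on replicate 3. Its level there was 7.01 times the mean of replicates 1 and 2 in normoxia and 3.00 times that mean in hypoxia. In a fit with the replicate block, the log2 fold change was 1.40 ± 0.38 (edgeR adjusted p = 0.0111). Without normoxia replicate 3 it was 2.97 (edgeR adjusted p = 0.0138), without hypoxia replicate 3 it was 0.67 (edgeR adjusted p = 0.492), and without both it was 2.12 ± 0.56 (edgeR adjusted p = 0.00350). The gene was called higher in 3 of these 4 fits, but 10 of all 13 alternative fits left it uncalled. Among those were edgeR's exact test (adjusted p = 0.137) and DESeq2 (adjusted p = 0.183).

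Some markers of basal and mesenchymal breast lines also stood apart in replicate 3. Of 11 such markers, 6 were highest in replicate 3 of both conditions. The share of all genes with that pattern was not determined. VIM, the intermediate filament protein vimentin, had 7, 12 and 395 counts in normoxia and 35, 35 and 1001 counts in hypoxia. Its level in replicate 3 was 51.1 times the mean of the others in normoxia and 12 times in hypoxia, and for the caveolar protein CAV1 the ratios were 99.5 and 7.03. Other markers did not share this pattern. The keratins had too few counts in normoxia for replicates to be compared. Counts in normoxia replicates 1, 2 and 3 were 0, 2 and 0 for KRT5, 1, 1 and 0 for KRT14, and 3, 3 and 0 for KRT17. KRT14 had 3, 0 and 0 counts in hypoxia. In hypoxia the ratios of KRT5 and KRT17 were 2.06 and 1.33. For CD44 the ratios were 0.597 in normoxia and 0.653 in hypoxia, and for AXL 1.25 and 0.979. The summed level of the whole list was 66.8 CPM in normoxia replicate 3, the lowest of a range up to 84.5, and 125.5 CPM in hypoxia replicate 3, the lowest of a range up to 147.0. CD44 made up most of these sums, and without it they were 4.69, 6.05 and 24.8 CPM in normoxia replicates 1, 2 and 3 and 41.5, 41.0 and 62.3 CPM in hypoxia, with replicate 3 the highest in both. None of the 11 markers was at 0 in all libraries. Of the 8 tested, 3 were called higher and 0 lower. Of those 8, 3 passed the filter only through their hypoxia libraries, and 1 of these was called higher. With the replicate block 5 were called higher, with CAV1 and CD44 added (edgeR adjusted p = 0.0411 and 1.10e-04). PLOD1, PLOD3 and LOXL4 were also highest in replicate 3 of both conditions, by 1.07 to 2.82 times, while LOX, LOXL1, P4HA1 and P4HA2 were lowest there. The part of these markers in the LOXL2 result was not tested.

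**Figure D3:**
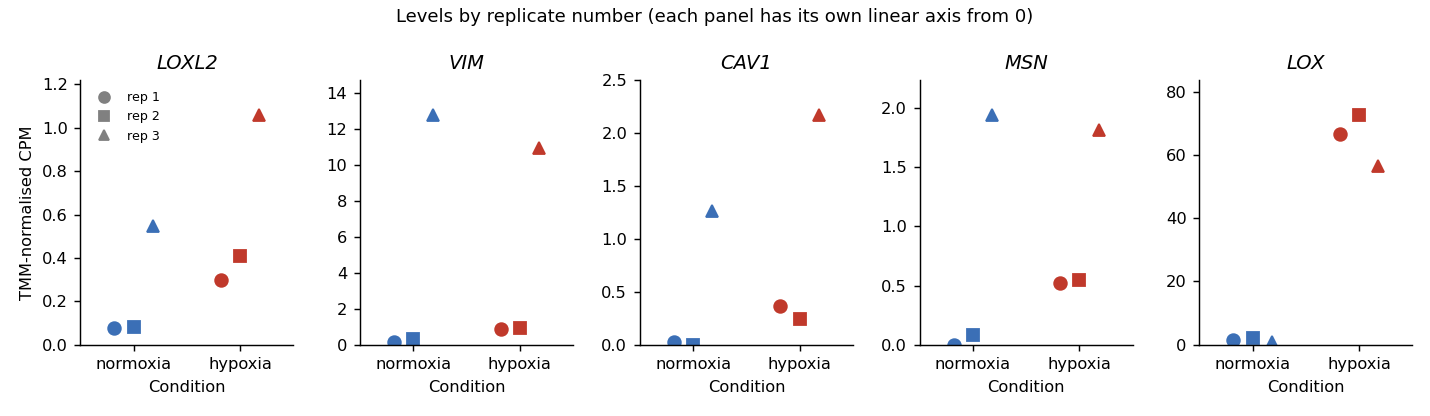
TMM-normalised CPM of LOXL2, of the basal markers VIM, CAV1 and MSN, and of LOX by condition and replicate number, each panel with its own linear axis from 0. Replicate 3 (triangles) is the highest library of each condition for LOXL2 and the 3 markers, and the lowest for LOX. The 3 markers plotted are among the 6 of 11 that are highest there.

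Without both libraries numbered 3, the other members kept their calls. The log2 fold change was then 5.32 ± 0.12 for LOX, 3.96 ± 0.40 for LOXL4, 3.04 ± 0.07 for P4HA1, 1.98 ± 0.26 for LOXL1 and 1.37 ± 0.06 for PLOD2. For PLOD1 and P4HA2 it was 0.92 ± 0.06 and 0.94 ± 0.07, and for PLOD3 0.07 ± 0.07 (edgeR adjusted p = 0.375). With the block, PLOD3 had a log2 fold change of 0.05 ± 0.06 (edgeR adjusted p = 0.482).

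**Figure D4:**
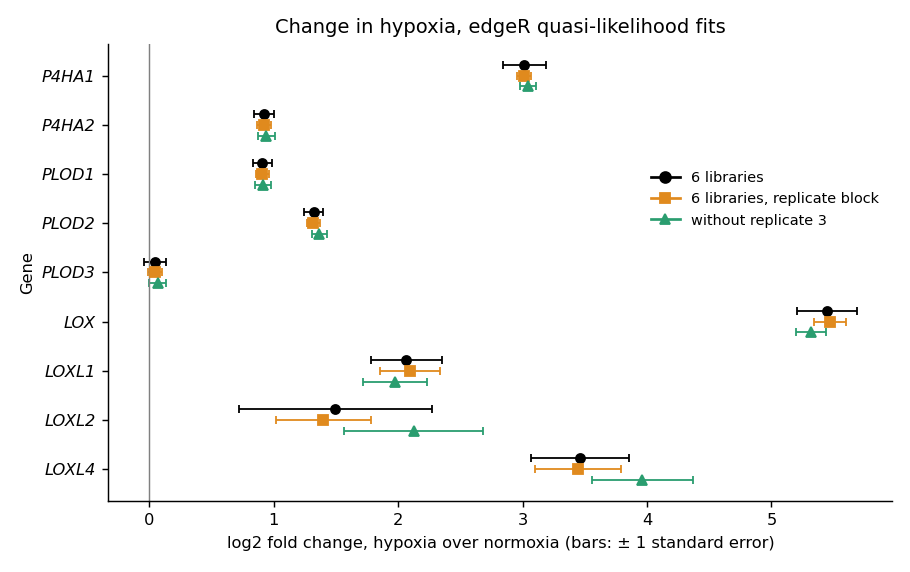
Log2 fold change (hypoxia over normoxia) with its standard error for each tested gene in edgeR fits of all 6 libraries, of all 6 with the replicate number as a block, and of the 4 libraries left without replicate 3. The values lie close together except for LOXL2, at 1.5, 1.40 and 2.12, and LOXL4, at 3.46, 3.45 and 3.96.

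LOX came to dominate the 4 listed lysyl oxidases in hypoxia. Per kilobase, it took 40.5%, 56.6% and 29.3% of their summed CPM in normoxia and 88.3%, 88.5% and 85.6% in hypoxia. LOXL1 went from 40.3% ± 11.4 to 8.06% ± 0.115 (SD, n = 3), although its level rose. The summed level was 0.622 ± 0.0575 CPM per kilobase in normoxia and 13.4 ± 1.46 in hypoxia, 21.6 times higher. Ratios of LOX to LOXL1, LOXL2 and LOXL4 counts changed by 3.41 ± 0.32, 3.89 ± 1.35 and 2.06 ± 0.80 on the log2 scale, and that of LOXL2 to LOXL4 by -1.83 ± 0.62, all without overlap of the groups (exact permutation test, p = 0.1 for each, adjusted p = 0.12). The groups overlapped for LOXL1 to LOXL2, at 0.49 ± 1.28 (exact permutation test, p = 0.7), and for LOXL1 to LOXL4, at -1.34 ± 0.78 (exact permutation test, p = 0.3). Without normoxia replicate 3, the changes were 2.71 for LOX to LOXL2, 1.29 for LOX to LOXL4, -0.61 for LOXL1 to LOXL2 and -2.03 for LOXL1 to LOXL4, and the last was -0.73 without normoxia replicate 1. Of the 12 ratios compared, 10 had groups that did not overlap, and the share among other pairs of genes was not determined.

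LOXL3, the remaining gene of the family, is not among the listed members and was looked at after the values were seen. It had 3.42 ± 0.246 CPM in normoxia and 2.64 ± 0.168 CPM in hypoxia (SD, n = 3), which is a log2 fold change of -0.37 ± 0.16 (edgeR adjusted p = 0.0817). Without both libraries numbered 3 it was -0.48 (edgeR adjusted p = 0.0253). HTRA2, on the other strand, overlaps 21.8% of its counted bases and had 827 to 2482 counts in a library. With LOXL3 included, LOX took 17.3% of the family's normoxia sum and 83.2% of its hypoxia sum, and LOXL3 itself 59.0% ± 0.585 and 4.94% ± 0.795. The normoxia share of LOX thus depends on whether LOXL3 is counted, whereas LOX led the family in hypoxia either way.

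Set side by side per kilobase of counted exon, the 9 tested genes spanned a wide range. In normoxia, PLOD2 was first with 53.6 ± 1.54 CPM per kilobase, then PLOD1 (27.1 ± 1.40), PLOD3 (20.8 ± 1.46), P4HA1 (14.4 ± 2.30) and P4HA2 (11 ± 0.377). The lysyl oxidases lay far below, with LOX at 0.266 ± 0.10 and LOXL1 at 0.254 ± 0.0911, which overlapped, and LOXL2 and LOXL4, which also overlapped, with means under 0.1. In hypoxia, P4HA1 had passed PLOD1 and PLOD3 and its libraries, with a mean of 116.7 ± 21.6, overlapped those of PLOD2 at 134.1 ± 8.55. PLOD1 followed at 51 ± 2.79, then PLOD3 at 21.5 ± 1.25 and P4HA2 at 21.0 ± 1.08, which overlapped. LOX came next at 11.8 ± 1.48, then LOXL1 at 1.08 ± 0.133, LOXL4 at 0.429 and LOXL2, without overlap between these neighbours.

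The other genes of collagen folding and processing went in both directions. Of 20 tested partners, 8 were called higher, 2 lower and 10 not called, with a median log2 fold change of 0.31. Among them, 4 passed the filter only through their hypoxia libraries, all 4 of which were called higher, and of the other 16, 4 were called higher (median 0.16). With the replicate block, 11 partners were called higher. SERPINH1, the collagen chaperone HSP47, had 136.0 ± 19.9 CPM in normoxia and 136.6 ± 8.85 CPM in hypoxia (SD, n = 3), which is a log2 fold change of 0.01 ± 0.11 (edgeR adjusted p = 0.964). Of 13 alternative fits, 7 kept this sign. Among those that turned it were RLE factors, DESeq2 and the fits without normoxia replicate 1, normoxia replicate 3 or hypoxia replicate 3. BMP1, the protease that trims procollagen and activates LOX, rose by 1.17 ± 0.17 (edgeR adjusted p = 9.27e-04), and PCOLCE, which enhances that protease, by 1.18 ± 0.16.

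Genes of the prolyl 3-hydroxylase family were also split. P3H2, named after its values were seen, went from 0.500 ± 0.130 to 1.85 ± 0.828 CPM (SD, n = 3), with a log2 fold change of 1.9 ± 0.38 (edgeR adjusted p = 0.00371). P3H1 was called higher at 0.34 ± 0.13 (edgeR adjusted p = 0.0498), whereas P3H3 and P3H4 fell, at -0.84 ± 0.20 and -0.46 ± 0.09. The P3H1 call was lost in edgeR's exact test (adjusted p = 0.0504), with RLE factors, without the filter, and without any of normoxia replicates 1 and 2 and hypoxia replicates 1 and 3 (adjusted p of 0.118 to 0.169). COLGALT1, which adds galactose to the hydroxylysine that the PLOD enzymes make, had a log2 fold change of -0.31 ± 0.14 (edgeR adjusted p = 0.0856). Under the replicate block, its adjusted p was 0.00218 and the number of partners called lower was 5. COLGALT1 also passed without normoxia replicate 2 (adjusted p = 0.0472) and without hypoxia replicate 3 (adjusted p = 0.00660), and without the latter 4 partners were called lower. In 9 of 13 alternative fits COLGALT1 stayed uncalled.

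Among the collagen chains themselves, which are the substrates, 10 of 17 genes were tested and 6 were called higher, 0 lower and 4 not called, with a median log2 fold change of 1.05. Of the 10, 3 passed the filter only through their hypoxia libraries and 2 of those were called higher, and of the other 7, 4 were called higher (median 0.69). With the replicate block 8 were called higher, with COL4A5 and COL4A6 added. COL27A1, a fibrillar chain, went from 4.83 ± 3.29 to 26.9 ± 12.6 CPM (SD, n = 3), and COL5A1, a regulatory fibrillar chain, from 0.960 ± 0.150 to 4.84 ± 2.28 CPM. Their log2 fold changes were 2.45 ± 0.62 and 2.32 ± 0.37, followed by 1.41 ± 0.33 for COL11A2 and 0.53 ± 0.13 for COL5A2. COL1A1, a chain of the major fibrillar collagen, did not pass the test, with 88.7 ± 5.78 CPM in normoxia and 84.3 ± 12.8 CPM in hypoxia (log2 fold change -0.07 ± 0.12, edgeR adjusted p = 0.616). Its log2 fold change was 0.08 with upper-quartile factors and -0.15 without both libraries numbered 3 (edgeR adjusted p = 0.0476).

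Of 12 tested genes of elastic fibres and their scaffolds, 7 were called higher, 3 lower and 2 not called (median 1.18). Among the 7, 3 passed the filter only through their hypoxia libraries, and of the 9 genes with all normoxia libraries over its level 4 were called higher (median 0.15). EFEMP2 (fibulin-4), which brings LOX to elastin, went from 2.38 ± 1.32 to 16.7 ± 0.720 CPM, with a log2 fold change of 2.79 ± 0.34 (edgeR adjusted p = 4.20e-04). FBLN5, which likewise binds LOXL1, had one of 1.57 ± 0.23 and LTBP2 one of 1.33 ± 0.22. LTBP1, which tethers latent TGF-beta to the matrix, fell from 153.2 ± 8.18 to 62.6 ± 7.08 CPM (SD, n = 3), at -1.29 ± 0.10.

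**Figure D5:**
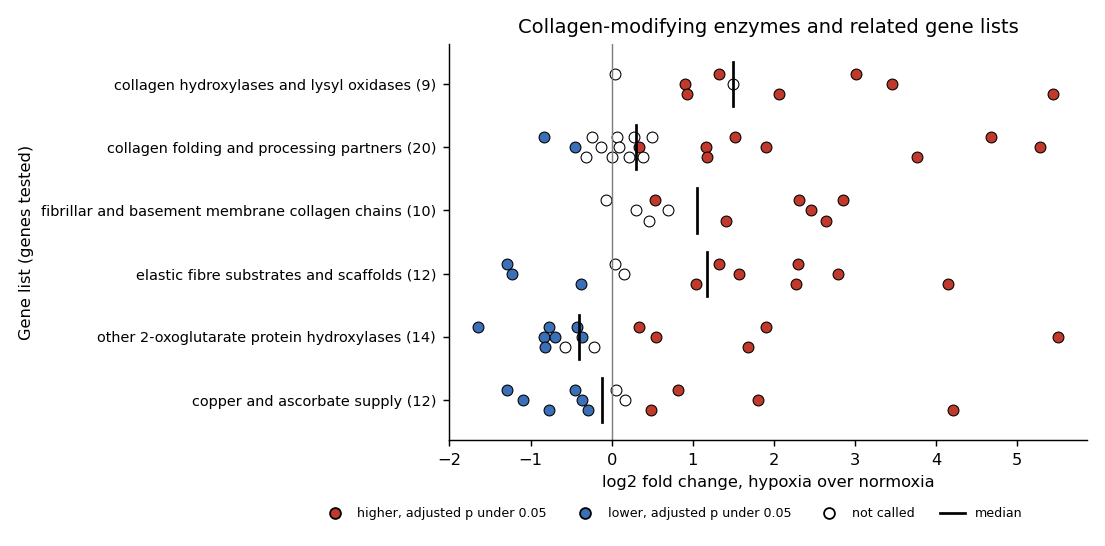
Log2 fold change (hypoxia over normoxia) of each tested gene in 6 lists, with the number tested in brackets, calls in red (higher) and blue (lower), genes not called in white, and a bar at the median. Medians run from -0.40 for the other 2-oxoglutarate protein hydroxylases to 1.5 for the collagen hydroxylases and lysyl oxidases, which is the value of LOXL2 and is 1.32 without LOXL2 and LOXL4. P3H1, P3H2 and P3H3 are plotted both with the collagen partners and with the other 2-oxoglutarate protein hydroxylases.

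Other protein hydroxylases that use oxygen and 2-oxoglutarate were split. Of 14 tested, 5 were called higher, 7 lower and 2 not called, with a median of -0.40. This list includes P3H1 and P3H2, called higher, and P3H3, called lower. These prolyl 3-hydroxylase genes were also counted among the collagen partners above. EGLN3 and EGLN1, the prolyl hydroxylases that act on the hypoxia-inducible factors, had log2 fold changes of 5.51 ± 0.40 and 1.68 ± 0.12. RIOX1, a ribosomal oxygenase, fell from 54.6 ± 4.0 to 17.3 ± 3.63 CPM (SD, n = 3), at -1.65 ± 0.15. The difference between this list and the collagen hydroxylases was not tested.

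Genes that supply copper to the lysyl oxidases or ascorbate to the hydroxylases were split as well. Of 12, 4 were called higher, 1 of them a gene that passed the filter only through its hypoxia libraries, 6 lower and 2 not called, with a median of -0.12. ATP7A, the pump that loads copper onto LOX in the secretory pathway, had a log2 fold change of 0.49 ± 0.12 (edgeR adjusted p = 0.00945). Its copper chaperone ATOX1 fell, at -0.77 ± 0.14, as did COX17, the chaperone of the mitochondrial route, at -1.10 ± 0.12. SLC23A2, an ascorbate transporter, was called higher at 0.81 ± 0.09, and SLC2A1, a glucose transporter that also carries oxidised ascorbate, at 1.80 ± 0.11.

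The gene whose pattern over the 6 libraries was most like each member was found by Pearson's r of log2 CPM. For LOX it was C17orf58 (r = 0.9999), for both P4HA1 and P4HA2 it was RNF19A (r = 0.9999 and 0.9996), and for PLOD2 it was TNFRSF11A (r = 0.9994). Those of the other members were CCP110 for PLOD1, USP48 for PLOD3, GARNL3 for LOXL1, CSRNP1 for LOXL2 and TGFBR2 for LOXL4, with r from 0.986 to 0.999. Such values were common, as 331 genes exceeded 0.99 with LOX and 287 with P4HA1, and r says nothing about size: RNF19A had a log2 fold change of 1.13 against 3.02 for P4HA1. With only 6 points in 2 conditions, these values describe the libraries and carry no test. PLOD3 had 0 genes over 0.99.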

How the data were processed

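Stranded mRNA libraries were sequenced from T47D cells, 3 from normoxia and 3 from hypoxia. The authors trimmed the reads with Skewer, mapped them to GRCh37 and deposited raw counts per RefSeq gene for each library, together with the gene's counted length. The submitters' processing notes name FastQC 0.11.5, STAR 2.5.2a and featureCounts 1.5.1. How strand and multiply mapped reads were handled in counting is not given in the sources used here, so counts of overlapping or near-identical genes are uncertain. Each library's 3 counts correspond to 0.0328 to 0.0969 CPM, and such limits cover counting error only.

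Groups and replicate numbers were taken from the labels. Counts were analysed in R 4.3.3 with edgeR 4.0.16, using TMM factors, filterByExpr (minimum count 10, minimum total 15) and the quasi-likelihood test with condition as the only term, adjusted over all 15657 genes kept. Fold changes are edgeR estimates, levels are TMM-normalised CPM, and ratios of counts had 0.5 added. The tests were tried on simulated counts first. Libraries with the same number deviated together from their group means (correlations of 0.316, 0.403 and 0.557 across genes), and the study describes paired samples, so a fit with the replicate number as a block was also made. It is printed beside a comparison, or a gene the text names, where it changes a call. Alternatives were edgeR's exact test (the study's test), DESeq2 1.42.0, other scaling factors, no filter, and each library left out. Adding LOXL3 to the shares was chosen after seeing the data. Replicates of a condition differed by more than counting noise (chi-square per degree of freedom of at least 6.09), so none was taken as a copy of another.

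The members and gene lists were chosen with earlier results of these data known, so the lists are described by counts and medians only. All members are named. From the lists, P4HB, P3H1, SERPINH1, COLGALT1, BMP1 and ATP7A are named whatever their values, along with up to 4 called genes per list with the largest change and a mean of at least 100 counts, any gene of the 4 lists of markers and low-oxygen genes, and the gene most like each member. LOXL3, P3H2, COL4A5, COL4A6, LOXL1-AS1, P4HA2-AS1 and HTRA2 were named after their values were seen. Promoter windows came from RefSeq and were matched to GRCh37. Python 3.11.15 with matplotlib 3.10.9 made the plots.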

Additional observations from a re-analysis of the deposited data

How the results depend on the processing

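Of 847 values recomputed under other settings, 799 met the criterion for their kind. Tested values had to keep their direction and their side of the threshold. Counts of genes had to stay within a set ratio of the main count, which is a loose criterion, and shares within the spread of the replicates. The 12 ratios of genes could not change side, since their permutation p cannot fall below 0.1. The 7 members called higher were called under every one of the 13 other fits across genes, where LOX ranged from 5.21 to 5.72 on the log2 scale and P4HA1 from 2.89 to 3.17, and PLOD3 was called in none. LOXL2 had a log2 fold change of 1.40 with the replicate block, where it passed the threshold, and 0.67 to 2.97 with libraries left out. The block changed no other member's call, and moved the collagen partners called lower from 2 to 5 and those called higher from 8 to 11. Over all genes it moved the number called lower from 4551 to 5511 and the number called higher from 4765 to 5733. With libraries left out, the collagen partners called lower were 2 to 4, and the collagen chains called lower were 0 to 1. The change in the log2 ratio of LOXL1 to LOXL2 was -0.61 to 1.21 with libraries left out, negative without normoxia replicate 3. SERPINH1, near 0, was -0.0041 with RLE factors and in DESeq2, and -0.14 to 0.098 with libraries left out, and COL1A1 was 0.085 with upper-quartile factors. The cause was not tested. Shares of counts rather than of CPM per kilobase were, in normoxia and hypoxia, 23.5% and 21.0% for PLOD1, 59.5% and 70.6% for PLOD2, 17.0% and 8.33% for PLOD3, 58.7% and 93.2% for LOX, and 24.3% and 3.65% for LOXL1, and 2.29% for LOXL4 in hypoxia, since longer genes weigh more there. With LOXL3 added, LOX had 17.3% and 83.2% and LOXL1 16.6% and 7.66%. Upper-quartile factors moved the median of all genes by 0.157 and the share of calls that were higher from 51.1% to 64.5%. Normoxia levels of LOXL2, LOXL4 and P4HA3 rest on few counts, and the LOXL2 libraries also disagreed, with replicate 3 the highest of each condition.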
